A study of Mus musculus with 4 samples.

Results

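The genes described here are the circadian clock genes Arntl, Cry1, Per1, Per2, Per3, Nr1d1, Nr1d2, Dbp, Tef and Ciart, 10 of the 31053 genes in the count matrices. They were taken by gene symbol as core components and direct targets of the molecular clock, and the rule uses no measured value. The set was nevertheless chosen with earlier results of these data known. The question was how these genes are set in each type of cholinergic cell of inguinal fat, and how each one stood after acute cold, with Arntl read against the genes that peak at the opposite time of day (Dbp, Nr1d1 and Per2).

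Male ChATBAC-eGFP mice carry a bacterial artificial chromosome in which the choline acetyltransferase (Chat) promoter drives eGFP, so cells were sorted by the transgene and not by Chat mRNA itself. All mice were 5 weeks old at the start and lived at thermoneutrality (30 °C) for 3 weeks. Pools of 4 mice then either remained at 30 °C or were taken to 4 °C for 4 h, and 2 libraries of eGFP+ stromal vascular cells were made at each temperature. The mice taken to 4 °C had first spent a day at room temperature, which the others had not, and the clock hour at which fat was collected is not given in the sources used here. The effects of the cold, the day at room temperature and the hour of collection cannot be told apart, and every difference between 30 °C and 4 °C below carries all of them.

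In the clock of mammalian cells, ARNTL (also called BMAL1) pairs with CLOCK and switches on genes that carry E-boxes, among them the Per and Cry genes, Nr1d1, Nr1d2 and Dbp. PER and CRY proteins then repress ARNTL and CLOCK, while NR1D1 and NR1D2 (REV-ERBα and REV-ERBβ) repress Arntl through ROR elements, so that Arntl peaks when Dbp and Nr1d1 are low. DBP and TEF bind D-boxes, CIART (CHRONO) represses ARNTL, and Per1 is also known as a direct target of the glucocorticoid receptor and of cAMP signalling.

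The stretches upstream of 6 of these genes are shown because 4 of the 6 (Ciart, Cry1, Per1 and Nr1d2) were lower at 4 °C in macrophages, because Per3 holds a pair of D-boxes, and because Arntl is the gene against which the others are read. Each is the 250 bases before a RefSeq start site on GRCm38.p6, written 5′ to 3′ along the gene. They lie at chr3:95882229-95882478 (minus strand) for Ciart, chr10:85185055-85185304 (minus strand) for Cry1, chr11:69098699-69098948 (plus strand) for Per1, chr14:18239107-18239356 (minus strand) for Nr1d2, chr4:151044666-151044915 (minus strand) for Per3 and chr7:113207215-113207464 (plus strand) for Arntl. Capitals mark an E-box (CACGTG), the related E-prime box (CACGTT or its reverse complement AACGTG), a D-box (TTATGTAA or its reverse complement) or a ROR half-site (AGGTCA or its reverse complement TGACCT), and none of the marked matches overlap.
Ciart: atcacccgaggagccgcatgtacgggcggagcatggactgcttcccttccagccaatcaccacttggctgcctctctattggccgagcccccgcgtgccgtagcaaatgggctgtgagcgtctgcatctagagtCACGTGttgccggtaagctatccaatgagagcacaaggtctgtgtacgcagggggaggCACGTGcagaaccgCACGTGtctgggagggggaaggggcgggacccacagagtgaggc
Cry1: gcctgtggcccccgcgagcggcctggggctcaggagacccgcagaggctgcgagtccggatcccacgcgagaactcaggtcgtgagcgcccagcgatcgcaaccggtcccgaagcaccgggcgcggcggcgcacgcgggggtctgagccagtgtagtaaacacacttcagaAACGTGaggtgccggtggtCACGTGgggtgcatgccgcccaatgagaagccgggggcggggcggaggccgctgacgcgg
Per1: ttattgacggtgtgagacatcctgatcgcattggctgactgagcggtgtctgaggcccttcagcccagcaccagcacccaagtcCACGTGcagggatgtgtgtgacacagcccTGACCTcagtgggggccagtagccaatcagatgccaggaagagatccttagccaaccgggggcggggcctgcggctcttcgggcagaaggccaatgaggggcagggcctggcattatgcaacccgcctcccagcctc
Nr1d2: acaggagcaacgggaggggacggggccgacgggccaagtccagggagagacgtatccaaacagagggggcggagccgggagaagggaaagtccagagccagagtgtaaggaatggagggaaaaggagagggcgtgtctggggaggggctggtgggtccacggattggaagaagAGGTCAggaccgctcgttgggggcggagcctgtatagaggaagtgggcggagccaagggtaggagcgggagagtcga
Per3: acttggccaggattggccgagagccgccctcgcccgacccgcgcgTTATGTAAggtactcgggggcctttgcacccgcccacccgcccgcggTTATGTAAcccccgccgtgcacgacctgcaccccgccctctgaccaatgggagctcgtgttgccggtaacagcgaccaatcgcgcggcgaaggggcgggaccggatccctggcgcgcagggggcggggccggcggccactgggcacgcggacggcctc
Arntl: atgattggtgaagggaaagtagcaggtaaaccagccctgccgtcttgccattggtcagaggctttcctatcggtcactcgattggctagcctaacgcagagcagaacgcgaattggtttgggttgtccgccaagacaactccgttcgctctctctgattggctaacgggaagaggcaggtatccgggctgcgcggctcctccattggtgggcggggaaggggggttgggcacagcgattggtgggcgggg
Ciart held 3 E-boxes, whose first letters were at positions -116, -58 and -44 from the start. Cry1 held an E-box at -60 beside an E-prime box at -79, Per1 an E-box at -166 and a ROR half-site at -137, and Nr1d2 a ROR half-site at -77. Per3 held 2 D-boxes, at -205 and -158. Searched on both strands in windows that also take in 50 bases after the start, E-boxes were in 7.15% of 32817 promoters, E-prime boxes in 4.69%, D-boxes in 0.935% and ROR half-sites in 16.3%. Of the remaining members, Tef held an E-box at -127 and Nr1d1 an E-prime box at -28, and neither Arntl nor Dbp held any of these letters. The cAMP response element TGACGTCA (1.79% of promoters) and the palindromic glucocorticoid response element (0.0091%) were in none of the 9 windows searched. Per2, which was also lower at 4 °C in macrophages, had no window among these promoters and was not searched. Only the exact letters given were searched, and variant forms of these elements were not. A match describes letters in this window and does not show that a factor binds there. For Per1, Arntl and Tef, which have more than 1 start in RefSeq, the window nearest the GENCODE start was used. Its start site still lay 3732 bases from the GENCODE start for Per1, inside the annotated gene, and 252 bases from it for Tef. Letters absent from the Per1 window were thus not searched for at its GENCODE start.

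After filtering, each library held 5191 to 5388 cells and 53423899 to 54933486 unique molecular identifiers (UMIs, each standing for 1 captured mRNA molecule), and any pair of libraries shared only 10 to 18 cell barcodes. Cell types were set by marker genes, none of them a clock gene. Per library this gave 1877 to 2461 B cells, 1524 to 1833 αβT cells, 217 to 340 group 2 innate lymphoid cells (ILC2), 159 to 447 macrophages, 109 to 151 plasma cells, 46 to 95 mature dendritic cells (DCs), 24 to 115 γδT cells, 27 to 40 stromal cells and 9 to 41 lymphatic endothelial cells. For each library, the UMIs of all cells of a type were added up, and a gene's level is its count per 1e6 UMIs of that sum (CPM). Replicate 1 at 4 °C held 447 macrophages against 159 to 181 in the other libraries. Chat stood at 61.5, 71.1, 80.4 and 89.9 CPM over all cells of the 4 libraries, and had 0 UMIs in stromal cells and 5 to 85 UMIs in macrophages. The ILC2 gate was not free of T cell RNA, with 307 to 454 CPM of Cd3d, Cd3e and Cd3g together, against 2469 to 2886 CPM in αβT cells. Libraries are from separate pools of mice, and n = 2 per temperature throughout. With so few libraries, values can stand apart without any change between temperatures. The share of all genes whose values did so was not computed, so lack of overlap is a description and not a test.

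At 30 °C the cell types were set apart by different members of the clock. Orders are given over the 8 cell types with at least 20 cells in every library, which leaves out lymphatic endothelial cells. Macrophages had the most Per1, at 227 and 185 CPM (206 ± 29.9, SD, n = 2), above stromal cells at 63.2 ± 14.4 CPM and B cells at 12.1 ± 1.01 CPM. γδT cells led for the repressor Cry1, with 73.8 and 68.6 CPM, against 23.7 ± 4.97 CPM in ILC2 and 5.78 ± 0.78 CPM in B cells. Arntl was highest in γδT cells as well (39.2 and 34.7 CPM), followed by ILC2 (34.1 and 25.2 CPM), and lowest in plasma cells (3.26 and 5.41 CPM). The 2 Arntl values of γδT cells lay just above those of ILC2, whereas αβT cells and macrophages (19.7 and 18.4 CPM on average) overlapped each other.

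**Figure D1:**
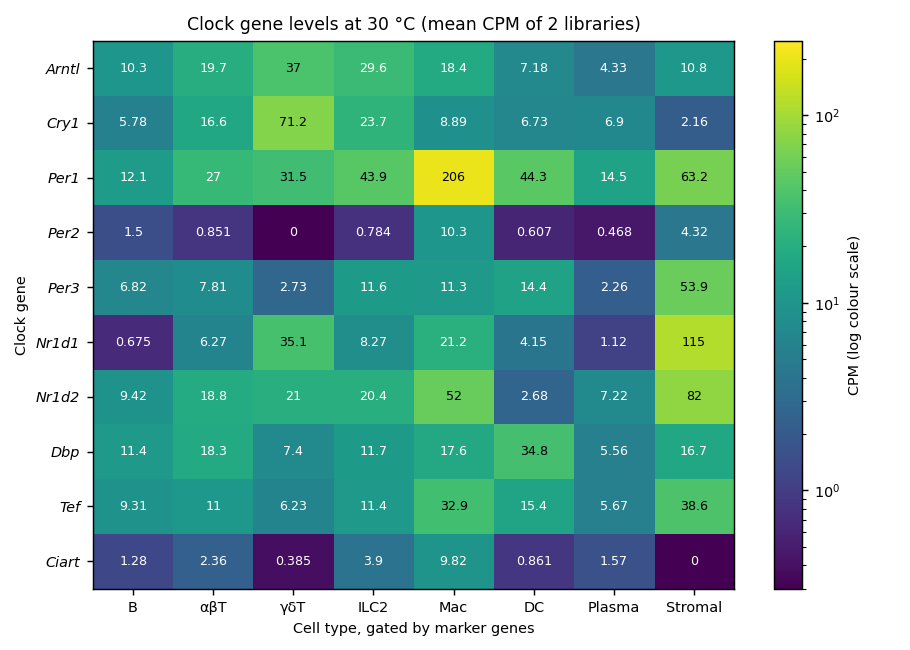
Mean CPM at 30 °C (2 libraries) of each clock gene (rows) in each marker-gated cell type (columns: B, B cells; αβT and γδT, T cells; Mac, macrophages; DC, mature dendritic cells), with a log colour scale on which 0 takes the darkest colour. Read along a row, Per1 peaks in macrophages (206 CPM), Cry1 in γδT cells (71.2 CPM) and Nr1d1 in stromal cells (115 CPM).

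The nuclear receptor Nr1d1 spanned a wide range over cell types. Stromal cells held 82.4 and 147 CPM, γδT cells 30.8 and 39.4 CPM, macrophages 17.2 and 25.2 CPM, and B cells 0.773 and 0.576 CPM, and of neighbours in this order only plasma cells and B cells overlapped. Its paralogue Nr1d2 was also highest in stromal cells (64.7 and 99.2 CPM) and macrophages (48.5 and 55.5 CPM), but stood at 9.57 and 9.26 CPM in B cells. If strand was not kept in counting, reads of Nr1d1 can include those of Thra, and reads of Dbp those of Sphk2, which overlap them on the opposite strand. Per3 overlaps Camta1 on the same strand, where strand does not separate the reads.

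Among the Per genes, Per2 was sparse, with 10.3 ± 2.05 CPM in macrophages and 1.50 ± 0.14 CPM in B cells. γδT cells had 0 Per2 UMIs in all 4 libraries, which allows up to 1.17 CPM over both libraries at 30 °C. The B cell level was 1.29-fold above this limit, on 29 and 36 Per2 UMIs. Neither the counting error of the B cell level nor the spread between pools is in that ratio, so it is not a lower bound. Per3 was highest in stromal cells, with 64.7 and 43.2 CPM against 13.3 and 15.5 CPM in mature DCs, its next neighbour. Ciart was highest in macrophages (11.2 and 8.4 CPM), ahead of ILC2 (4.26 and 3.53 CPM), and had 0 UMIs in stromal cells. Stromal cells held only 169922 and 231743 UMIs of all genes at 30 °C, so this 0 does not place them below ILC2.

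The D-box factors differed less between cell types. Dbp ran from 34.8 ± 12.6 CPM in mature DCs to 5.56 ± 0.18 CPM in plasma cells, and αβT cells, macrophages, stromal cells, ILC2 and B cells each overlapped the next in that order. Tef was highest in stromal cells and macrophages (38.6 and 32.9 CPM on average), which overlapped, and lowest in plasma cells (5.67 ± 0.031 CPM). The low places of plasma cells for Arntl, Dbp and Tef are by share of UMIs, which is not a number per cell. At 30 °C their median depth was 28861 and 26058 UMIs per cell, against 7962 and 7875.5 in B cells. Dbp had 25 and 20 UMIs in 151 and 133 plasma cells, against 255 and 237 in 2204 and 2344 B cells.

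These levels were tested against B cells at 30 °C in 1 edgeR fit over 5 cell types with library as a factor. In macrophages, 6 of 10 members were past the adjusted p of 0.05, all higher than in B cells, where 66.6% of all genes tested were past it in either direction and 32.4% were higher. They were Nr1d1 (21.6-fold), Per1 (11.8-fold), Ciart (5.29-fold), Per2 (4.77-fold), Nr1d2 (3.84-fold) and Tef (2.45-fold). In αβT cells 6 of 10 differed, against 57% of all genes, with Nr1d1 6.91-fold, Cry1 2.16-fold, Per1 1.67-fold, Nr1d2 1.50-fold and Arntl 1.44-fold higher and Per2 2.32-fold lower.

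ILC2 differed in 5 of 10 members, against 44.1% of all genes, and all 5 were higher, as were 21.5% of all genes (Nr1d1 9.85-fold, Cry1 3.35-fold, Per1 2.93-fold, Arntl 2.34-fold, Nr1d2 1.76-fold). γδT cells differed in 7 of 9 members, against 46.9% of all genes, with Per2 not counted because it was at 0 there. Nr1d1 (40.2-fold), Cry1 (9.65-fold), Arntl (2.82-fold), Per1 (2.03-fold) and Nr1d2 (1.75-fold) were higher in them, while Per3 (3.18-fold) and the output gene Dbp (1.97-fold) were lower. Without replicate 1 at 30 °C, 4 of these 7 were past the threshold, the 4 being Arntl, Cry1, Per1 and Nr1d1.

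Macrophages changed the most between temperatures. Per1 had 384 and 330 UMIs at 30 °C and 184 and 106 at 4 °C, which is 227 and 185 CPM against 47.4 and 72.6 CPM. Both 4 °C libraries lay far below both 30 °C libraries, and Per1 was 3.73-fold lower (log2 fold change -1.90 ± 0.18, SE; edgeR adjusted p = 1.77e-05). It was past the threshold in 13 of 13 settings, with log2 fold changes from -2.16 to -1.53.

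Of the 10 members, 5 were past the threshold in macrophages and all 5 were lower at 4 °C, where 17.9% of all genes tested were past it and 8.62% were lower. Ciart, the ARNTL repressor, went from 11.2 and 8.4 CPM to 0.772 and 4.11 CPM (log2 fold change -2.49 ± 0.59, adjusted p = 0.0119 in edgeR). Per2 went from 8.87 and 11.8 CPM to 2.83 and 4.79 CPM (-1.62 ± 0.42, adjusted p = 0.0203). For both genes the temperatures did not overlap, on counts of 3 to 21 UMIs per library.

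Cry1 stood at 7.69 and 10.1 CPM at 30 °C against 3.60 and 2.74 CPM in the cold (log2 fold change -1.44 ± 0.42, edgeR adjusted p = 0.0322). Nr1d2 fell from 48.5 and 55.5 CPM to 37.3 and 31.5 CPM (-0.60 ± 0.17, adjusted p = 0.0277). These 2 also held apart in every library, though with a smaller step for Nr1d2. By DESeq2, which called Per1 alone, the other 4 had adjusted p values from 0.105 to 0.358.

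These 4 calls also depended on single libraries. Without replicate 1 at 30 °C only Per1 and Nr1d2 were past the threshold, without replicate 2 at 30 °C only Per1 and Ciart, and without replicate 1 at 4 °C only Per1 and Nr1d2. Leaving out replicate 2 at 4 °C kept all but Cry1. The log2 fold change of Ciart was -1.26 without replicate 1 at 4 °C.

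The other 5 members of macrophages did not pass. Dbp stood at 17.7 and 17.4 CPM at 30 °C against 27.5 and 28.8 CPM in the cold, so that the groups did not overlap (log2 fold change 0.63 ± 0.21, edgeR adjusted p = 0.0638). Arntl had 18.9 and 17.9 CPM against 25.7 and 22.6 CPM (0.38 ± 0.22, adjusted p = 0.283), Per3 12.4 and 10.1 CPM against 16 and 19.2 CPM (0.56 ± 0.28, adjusted p = 0.206) and Tef 36.1 and 29.7 CPM against 22.9 and 26.7 CPM (-0.48 ± 0.20, adjusted p = 0.136). Nr1d1 overlapped between temperatures, with 17.2 and 25.2 CPM against 21.4 and 22.6 CPM. Its log2 fold change was -0.01 ± 0.24, beside those of Per1 and Per2, which like Nr1d1 are known targets of ARNTL. Of these 5, Dbp passed without cycling cells (0.90, adjusted p = 0.0302) and without TMM scaling (0.67, adjusted p = 0.0497), higher at 4 °C in both.

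**Figure D2:**
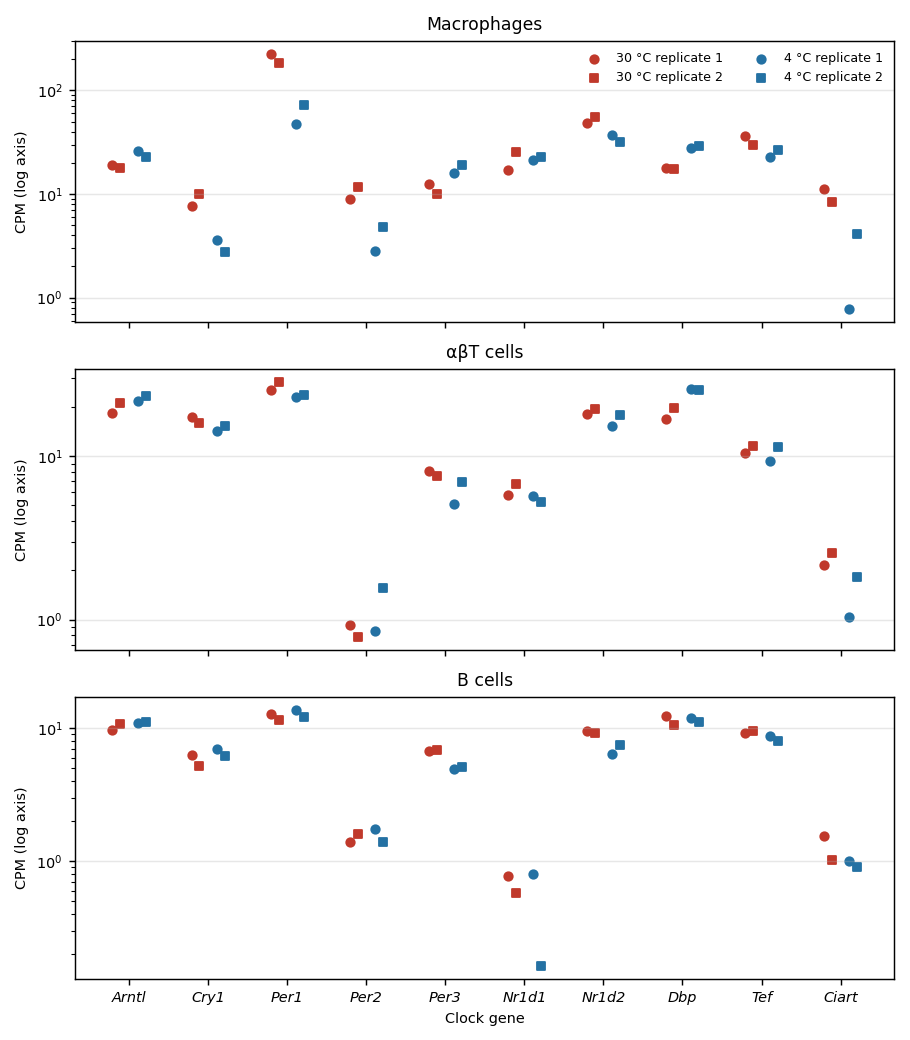
CPM (log axis) of each clock gene in the 4 libraries (red, 30 °C; blue, 4 °C; circles, replicate 1; squares, replicate 2) in macrophages, αβT cells and B cells. In macrophages both blue points of Per1 (47.4 and 72.6 CPM) lie well below both red ones (227 and 185 CPM), whereas in B cells the points of Per1 mix (11.4 to 13.7 CPM).

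In αβT cells 1 clock gene passed the threshold. Dbp had 220 and 254 UMIs at 30 °C and 419 and 377 at 4 °C, or 16.9 and 19.8 CPM against 25.6 and 25.5 CPM. The 2 temperatures did not overlap, and Dbp rose 1.34-fold (log2 fold change 0.42 ± 0.10, edgeR adjusted p = 0.0467). It was the only 1 of 10 members past the threshold, where 5.01% of all genes were past it and 2.17% were higher.

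This call was narrow, with Dbp past the threshold in 6 of 13 settings and adjusted p values up to 0.3. It was lost without replicate 1 at 30 °C (0.3) and without replicate 1 or 2 at 4 °C (0.115 and 0.0882), and by DESeq2 (0.232). Per1 stood at 25.5 and 28.5 CPM against 23.1 and 23.6 CPM (log2 fold change -0.27 ± 0.09, adjusted p = 0.118), Arntl at 18.4 and 21.0 CPM against 21.6 and 23.2 CPM, and Cry1 at 17.4 and 15.9 CPM against 14.2 and 15.3 CPM. None of these 3 was past the threshold. Their values did not overlap between temperatures, but the steps were small. Nr1d1 had 5.77 and 6.77 CPM at 30 °C against 5.68 and 5.21 CPM in the cold.

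In γδT cells Dbp differed most among the members, on few molecules. Dbp had 10 and 9 UMIs in 113 and 115 cells at 30 °C, and 18 and 11 UMIs in 58 and 24 cells at 4 °C, which is 7.69 and 7.10 CPM against 37.9 and 41.0 CPM. The groups stood well apart, at a log2 fold change of 2.31 ± 0.41, but edgeR's adjusted p was 0.0982. It was past the threshold without replicate 1 at 4 °C (adjusted p = 0.0244) and without replicate 2 at 4 °C (0.000721), where the remaining library is assumed to vary like the others. None of 6 tested members and 0% of all genes passed in this cell type (2 members had an unadjusted p under 0.05), and in simulated data of this size edgeR found 22.6% of genes changed 2-fold and 78.4% of those changed 4-fold.

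Cry1 in γδT cells had 96 and 87 UMIs at 30 °C against 24 and 7 at 4 °C, or 73.8 and 68.6 CPM against 50.6 and 26.1 CPM (log2 fold change -0.85 ± 0.28, edgeR adjusted p = 0.310). Arntl had 39.2 and 34.7 CPM against 25.3 and 33.6 CPM, and Nr1d1 30.8 and 39.4 CPM against 42.1 and 37.3 CPM. Cry1 and Arntl were lower in both 4 °C libraries, by a narrow margin for Arntl, while Nr1d1 overlapped.

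Arntl was set against Dbp within each library as its share of the UMIs of both genes. In γδT cells Arntl took 83.6% in replicate 1 at 30 °C, with an exact 95% interval of 71.9% to 91.8%, and 83.0% in replicate 2 (70.2% to 91.9%). The 4 °C replicates gave 40.0%, with an interval of 22.7% to 59.4%, and 45.0%, with one of 23.1% to 68.5%. The intervals, which cover counting error only, did not overlap between temperatures. In αβT cells the shares were 52.1% and 51.5% at 30 °C and 45.8% and 47.6% at 4 °C, and in macrophages 51.6% and 50.8% against 48.3% and 44.0%. Both orders were the same as in γδT cells but their intervals overlapped, and in B cells (44.2% and 50.6% against 47.9% and 49.7%) and ILC2 (73.6% and 69.4% against 71.8% and 66.7%) the shares themselves overlapped.

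**Figure D3:**
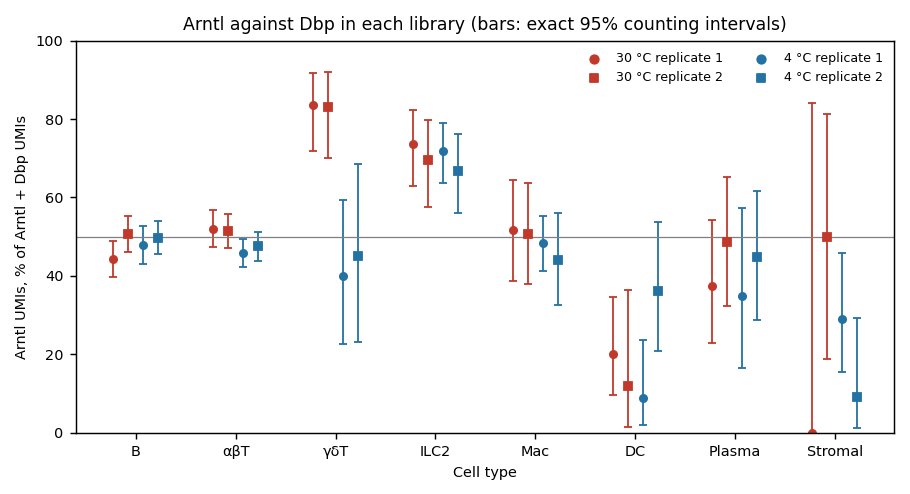
Share of Arntl among the UMIs of Arntl and Dbp in each library (red, 30 °C; blue, 4 °C), by cell type (Plasma, plasma cells; Stromal, stromal cells; others as above), with exact 95% counting intervals. In γδT cells the share drops from 83.6% and 83.0% to 40.0% and 45.0%, whereas B cells stay between 44.2% and 50.6%.

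Against Nr1d1, Arntl did not move in the same way. Its share of Arntl and Nr1d1 UMIs in γδT cells was 56.0% and 46.8% at 30 °C and 37.5% and 47.4% at 4 °C, and in macrophages 52.5% and 41.6% against 54.6% and 50%. In αβT cells it was 76.1% and 75.6% at 30 °C and 79.2% and 81.6% at 4 °C, so that the order was opposite to that against Dbp. Against Per2 in macrophages, Arntl took 68.1% and 60.4% at 30 °C and 90.1% and 82.5% at 4 °C, again opposite to the order against Dbp. In αβT cells against Nr1d1 the exact 95% intervals overlapped between temperatures. In macrophages against Per2, on 7 to 21 Per2 UMIs per library, the 30 °C intervals were 52.9% to 80.9% and 46.0% to 73.5%. That of replicate 2 at 4 °C (67.2% to 92.7%) overlapped both, while that of replicate 1 at 4 °C (83.0% to 94.9%) overlapped neither.

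In ILC2 Per1 was the member that passed the threshold. It had 48.4 and 39.4 CPM at 30 °C against 25.8 and 19.7 CPM in the cold, without overlap (log2 fold change -0.98 ± 0.19, edgeR adjusted p = 0.00325). This was 1 of 8 tested members, where 8.77% of all genes passed and 4.84% were lower. Once cells with a UMI of Trac, Cd3d or Cd3e were left out, the log2 fold change of Per1 was -0.88 and its adjusted p 0.0661, and with a stricter gate they were -0.71 and 0.215.

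The other 7 tested members of ILC2 did not pass. Dbp had 12.2 and 11.1 CPM against 11.1 and 13.4 CPM, Arntl 34.1 and 25.2 CPM against 28.3 and 26.9 CPM, and Cry1 20.2 and 27.3 CPM against 22.5 and 36.3 CPM. In all 3 the temperatures overlapped. Ciart, which was too sparse to be tested in these cells, had 8 and 7 UMIs at 30 °C and 7 and 1 at 4 °C.

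B cells, with the most molecules, showed no member past the threshold, where 1.47% of all genes were past it (edgeR; 2 members had an unadjusted p under 0.05, and DESeq2 called none of the 8 for which it gave an adjusted p). Per1 had 12.9 and 11.4 CPM against 13.7 and 12.2 CPM, and Dbp 12.3 and 10.5 CPM against 11.9 and 11.2 CPM, so both overlapped. Nr1d2 (9.57 and 9.26 CPM against 6.36 and 7.45 CPM, log2 fold change -0.53 ± 0.13, adjusted p = 0.129) and Per3 (6.72 and 6.91 CPM against 4.93 and 5.08 CPM, -0.53 ± 0.13, adjusted p = 0.131) did not overlap. Nr1d2 was past the threshold with replicate 1 or replicate 2 at 30 °C left out (edgeR adjusted p = 0.0468 and 0.0107) and without cycling cells (0.0076).

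In mature DCs 0 of 5 tested members passed edgeR's threshold, where 1.85% of all genes did (2 members had an unadjusted p under 0.05, and DESeq2 gave an adjusted p for 2 of the 5 and called neither). Per1 stood at 47.3 and 41.3 CPM at 30 °C against 27.5 and 27.2 CPM in the cold (log2 fold change -0.73 ± 0.25, adjusted p = 0.190). Dbp stood at 43.7 and 25.8 CPM against 24.3 and 20.2 CPM (-0.71 ± 0.31, adjusted p = 0.332).

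Plasma cells had 0 of 7 tested members past the threshold, where 0.0226% of all genes were (edgeR; 1 member had an unadjusted p under 0.05, and DESeq2 called none of the 7). Per1 stood at 12.2 and 16.8 CPM against 6.16 and 8.44 CPM (log2 fold change -0.96 ± 0.25, edgeR adjusted p = 0.610). The 2 groups did not overlap there.

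Stromal cells, of which each library held no more than 40, had 0 of 6 tested members past the threshold, where 0.408% of all genes were (3 members had an unadjusted p under 0.05, and DESeq2 gave an adjusted p for 2 of the 6, neither of them Dbp or Per1, and called neither). Dbp had 2 and 5 UMIs at 30 °C and 27 and 20 at 4 °C, or 11.8 and 21.6 CPM against 61.6 and 80.4 CPM (3.88-fold, with an SE of 0.50 on the log2 scale, edgeR adjusted p = 0.193). Per1 had 53.0 and 73.4 CPM against 18.3 and 20.1 CPM (-1.75 ± 0.49, adjusted p = 0.220). For both genes the temperatures stood apart, and the libraries' median depth of these cells ranged over 3627 to 4202 UMIs for 30 °C, against 11462.5 to 11955 for 4 °C. The part of depth in these values was not tested.

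Lymphatic endothelial cells were too few for a fit. Per1 had 24 and 24 UMIs at 30 °C and 2 and 4 at 4 °C, or 52.9 and 97.0 CPM against 24.6 and 20.1 CPM. Dbp had 17.6 and 36.4 CPM against 86.1 and 55.2 CPM, so that neither gene overlapped between temperatures. At 30 °C these cells had 61.7 and 40.4 CPM of Tef and 6.61 and 16.2 CPM of Ciart, with means above those of the 8 other cell types, and 4.41 and 4.04 CPM of Arntl, with a mean below them.

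**Figure D4:**
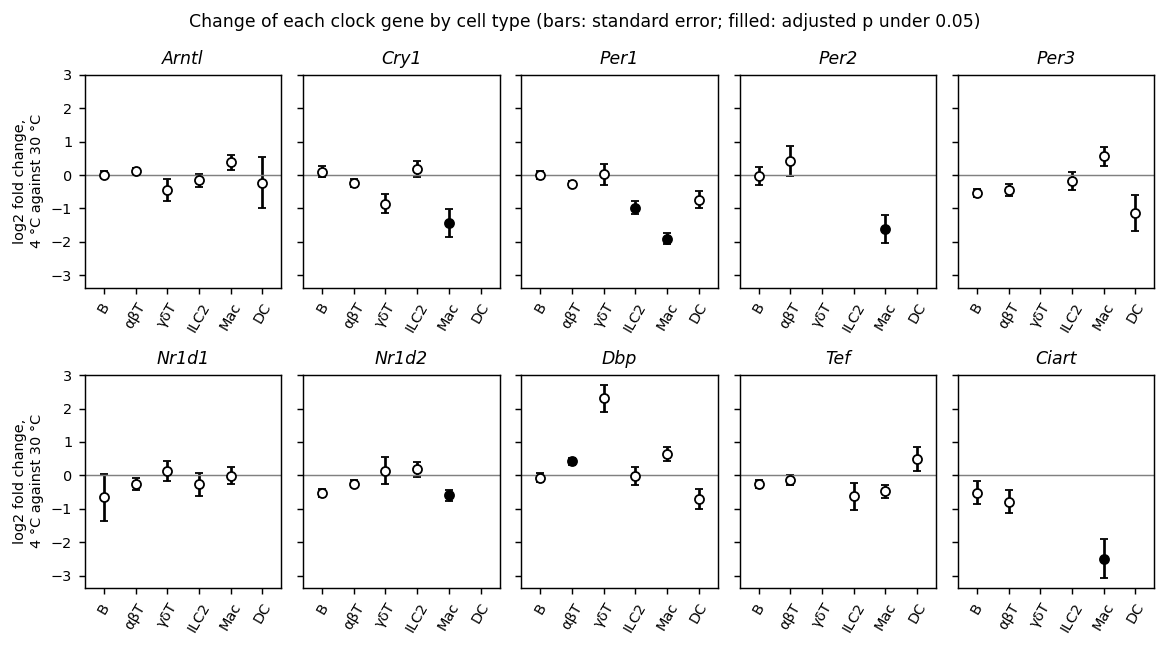
Log2 fold change (4 °C against 30 °C, edgeR, with its standard error) of each clock gene in 6 cell types, where filled points have an adjusted p under 0.05 and a missing point was too sparse to be tested. Filled points are Per1, Per2, Cry1, Nr1d2 and Ciart in macrophages, Per1 in ILC2 and Dbp in αβT cells.

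The step of each gene was compared with its step in B cells by the interaction term of the fit over 5 cell types. For macrophages 2 of 10 members passed, where 6.11% of all genes did. The change of Per1 was lower by 1.86 ± 0.22 on the log2 scale than in B cells (edgeR adjusted p = 1.8e-05), past the threshold in 12 of 12 settings. That of Per3, which was lower at 4 °C in both B cell libraries and higher in both macrophage libraries, was 1.16 ± 0.33 above that of B cells (adjusted p = 0.0400), past it in 5 of 12 settings.

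The difference in Per3 was lost when any 1 of the 4 libraries was left out, with adjusted p values of 0.157 and 0.212 without replicates 1 and 2 at 30 °C, and 0.132 and 0.178 without replicates 1 and 2 at 4 °C. In γδT cells 1 of 9 members passed, Per2 again not counted, where 0.29% of all genes did and 0.153% in the upward direction. It was Dbp, whose change stood 2.38 ± 0.39 above that of B cells (edgeR adjusted p = 0.0125). Its adjusted p was 0.0843 with replicate 1 at 30 °C left out, 0.282 with replicate 1 at 4 °C left out and 0.0535 with replicate 2 at 4 °C left out.

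Neither αβT cells (0.571% of all genes past the threshold) nor ILC2 (0.938%) had a member whose change differed from B cells in edgeR, although 1 and 2 members had an unadjusted p under 0.05, and DESeq2 called none of the 8 for which it gave an adjusted p in each. The difference of Dbp between αβT cells and B cells was 0.50 ± 0.18 (adjusted p = 0.428), and that of Per1 between ILC2 and B cells -0.94 ± 0.26 (adjusted p = 0.126). The calls in αβT cells and ILC2 are thus not shown to be particular to those cells. Simulated 2-fold changes put into macrophages alone passed this kind of test in 8.70% of cases. That simulation used 1 fixed spread for all genes and no effect shared within a library. It was not run for αβT cells or ILC2, so it does not give the share of changes found there.

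Other genes of the clock were followed as a list of 19. This list and those below were chosen with earlier results of these data known. In macrophages the median log2 fold change was -0.14 over the list against -0.00 over all genes. Of 11 tested there, 3 were past the threshold and all were lower, where 8.62% of all genes were. They were Nfil3, a repressor at D-boxes (log2 fold change -1.96 ± 0.20), Cry2, the paralogue of Cry1 (-1.40 ± 0.35), and Rora, an activator at ROR elements (-0.90 ± 0.25). In ILC2, where 8.77% of all genes were past the threshold, the DBP relative Hlf was higher (0.48 ± 0.11) and Rora was lower (-0.45 ± 0.08). For ILC2, 1 result of this list is not reported here. B cells (14 tested) and αβT cells (16 tested) had 0 by edgeR, with 1 and 4 at an unadjusted p under 0.05.

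Of 7 genes known as outputs of the clock, 0 passed in B cells, αβT cells and ILC2. In macrophages 2 of 6 tested were lower, where 8.62% of all genes were. They were Wee1, the kinase that delays entry into mitosis (log2 fold change -1.85 ± 0.31), and the cell cycle inhibitor Cdkn1a (-1.38 ± 0.12). An unadjusted p under 0.05 was reached by 3 of these genes in B cells, 1 in αβT cells and 0 in ILC2.

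Targets of the glucocorticoid receptor, a list of 8 to which Per1 does not belong, were lower at 4 °C in several cell types. In macrophages 8 of 8 were lower, where 8.62% of all genes were, with a median log2 fold change of -2.74. These were led by Ddit4 (-7.20 ± 0.19), the receptor chaperone Fkbp5 (-4.80 ± 0.18) and the Krüppel-like factor Klf9 (-3.59 ± 0.14). In ILC2 5 of 7 were lower (median -1.76), in αβT cells 4 of 8 (median -1.31) and in B cells 4 of 7 (median -0.80). Of all genes, 4.84% were lower in ILC2, and 5.01% in αβT cells and 1.47% in B cells passed in either direction. B cells had lower Fkbp5 (-2.84 ± 0.11), Tsc22d3 (-1.76 ± 0.14) and Ddit4 (-1.73 ± 0.12) with Per1 at -0.00 ± 0.12. The part of glucocorticoid signalling in the values of Per1 was not tested.

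Immediate early genes, which respond to cell handling as well as to signals, were higher at 4 °C in 4 of 8 in macrophages, 3 of 8 in αβT cells and 1 of 8 in B cells, and in none in ILC2. In macrophages these were Atf3 (log2 fold change 1.56 ± 0.16), Junb (0.54 ± 0.12) and Fosb (0.51 ± 0.15) among others, and in αβT cells Nr4a1 (0.75 ± 0.10), Junb (0.40 ± 0.05) and Fosb (0.39 ± 0.08). Nr4a1 rose in B cells (1.03 ± 0.07). Of all genes, 2.17% were higher in αβT cells, and 17.9% in macrophages, 8.77% in ILC2 and 1.47% in B cells passed in either direction. The part of immediate early genes in the clock gene results was not tested.

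Per1 was lower at 4 °C in each kind of macrophage looked at. In cells with an Mrc1 or Folr2 UMI and none of Itgax or Trem2, Per1 had 271 and 194 CPM at 30 °C against 50.5 and 89.5 CPM in the cold. In cells with an Itgax or Trem2 UMI it had 125 and 162 CPM against 41.4 and 49.3 CPM. Macrophages with a UMI of Mki67 or Top2a, taken as cycling, had 237 and 214 CPM against 30.7 and 53.1 CPM, and the rest 224 and 176 CPM against 51.2 and 77.3 CPM. In each of these 4 subsets both 4 °C libraries lay below both 30 °C libraries.

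Cycling cells, a subset compared after the first values had been seen, had a lower share of their UMIs in most of the clock genes tested in both lymphocyte types. A share is not a number per cell, and in replicate 1 at 30 °C, for example, Dbp had 73 UMIs in 500 cycling αβT cells and 147 in 1024 others, and Arntl 103 and 136. Among αβT cells, 8 of 9 tested members were lower in cycling cells of the same libraries, where 49.9% of all genes differed and 23.5% were lower, with a median log2 difference of -0.88. Nr1d1 had 2.13, 2.47, 2.47 and 3.30 CPM in cycling cells and 9.51, 10.6, 8.52 and 6.66 CPM in the others, in the order 30 °C replicates 1 and 2 and 4 °C replicates 1 and 2 (log2 difference -1.62 ± 0.20, edgeR adjusted p = 1.71e-05). Dbp (2-fold) and Per1 (1.83-fold) were lower too, and Cry1 was the member that did not pass (0.15 ± 0.11).

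In B cells 6 of 9 tested members were lower in cycling cells, where 43% of all genes differed and 20.4% were lower, with a median of -0.60. Cry1 (log2 difference -0.79 ± 0.17, edgeR adjusted p = 0.00196), Per3 (-0.74 ± 0.17) and Tef (-0.64 ± 0.13) differed most, and Arntl was at 0.09 ± 0.12. Cycling cells made up 28.3% to 32.8% of αβT cells and 25.9% to 53.1% of γδT cells per library. Within αβT cells Dbp stood higher at 4 °C in cycling cells (11.1 and 10.4 CPM against 15.1 and 17.3 CPM) and in the others (22.9 and 28.1 CPM against 34.9 and 31.7 CPM).

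**Figure D5:**
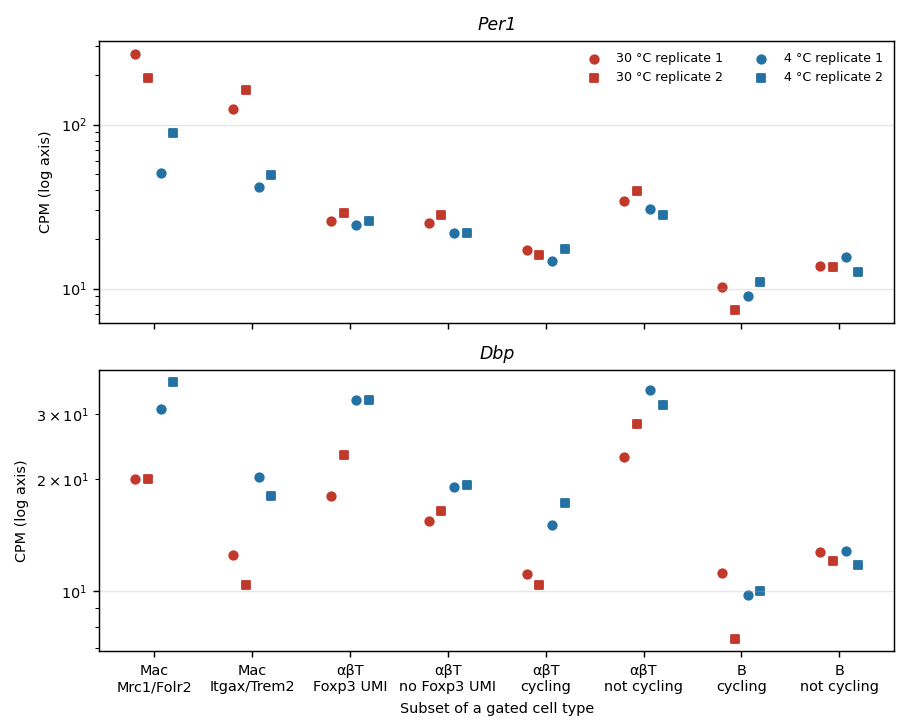
CPM (log axes) of Per1 and Dbp in each library (red, 30 °C; blue, 4 °C) within subsets of macrophages, αβT cells and B cells, where a subset is set by a UMI of the genes named or, for cycling cells, of Mki67 or Top2a. Per1 is lower at 4 °C in both macrophage subsets, and Dbp is higher at 4 °C in both subsets of each αβT split.

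Regulatory T cells, read here as αβT cells with a Foxp3 UMI, had more Dbp than the other αβT cells of the same libraries, the only 1 of 10 members past the threshold, where 35.3% of all genes were and 18.3% were higher (log2 difference 0.59 ± 0.10, edgeR adjusted p = 0.000362). Dbp had 18.1 and 23.3 CPM at 30 °C against 32.7 and 32.7 CPM in the cold with a Foxp3 UMI, and 15.5 and 16.5 CPM against 19.1 and 19.3 CPM without. The step between temperatures did not pass as different between these subsets (0.39 ± 0.18, adjusted p = 0.551), nor did that of any other member, where 0.521% of all genes did. This split was also chosen after values had been seen.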

How the data were processed

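Male ChATBAC-eGFP mice gave 4 libraries of sorted eGFP+ stromal vascular cells of inguinal fat, 2 at 30 °C and 2 after 4 °C. The deposited matrices hold raw UMI counts per gene and cell, which the authors made from 10x Genomics reads with Cell Ranger on mouse mm10 (version 3.0.0 in the matrix headers, 3.1.0 in the submitters' processing notes, which also name STAR and Seurat 4.2.0). The members and lists were chosen with earlier results of these data known.

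Kept cells had over 200 genes, under 5000 genes and less than 7.5% mitochondrial UMIs, as in the study's methods, after a minimum of 100 genes per cell and 10 cells per gene. Cell types were gated on marker genes, and cells that met the gates of more than 1 lineage (222 to 258 per library) were left out, which also stood in for a doublet caller. UMIs were summed per library and cell type. Sums were tested with edgeR 4.0.16 in R 4.3.3 (quasi-likelihood, TMM scaling, filterByExpr, Benjamini-Hochberg over all genes of the fit, threshold 0.05) in cell types with at least 20 cells in every library. A fit over 5 cell types with library as a factor gave levels and changes against B cells. Cell types of 1 library share mice. For the change within 1 cell type, p-values measure the spread between 2 pools per temperature. Where library is a factor, as also for the cycling and Foxp3 subsets, they measure the spread of differences within libraries.

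Intervals are exact 95% binomial intervals (scipy 1.17.1) and, like the limit of 3 counts used for a gene at 0, cover counting error only. In simulated data with 200 changed genes, fits of single cell types recovered 78.4% (γδT cells) to 98.0% (macrophages) of 4-fold changes. They recovered 22.6% (γδT cells) to 81.4% (ILC2) of 2-fold changes, and 12.0% of calls were false in B cells and 10.4% in αβT cells. The interaction test of macrophages against B cells recovered 64.4% of simulated 4-fold changes and 8.70% of 2-fold changes, with 1 fixed spread for all genes and no effect shared within a library.

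The text names the 10 members in every cell type fitted, at most the 3 largest calls in each direction from each list in B cells, αβT cells, ILC2 and macrophages, and the 5 genes most like Dbp and Arntl. For ILC2, 1 result of the list of other clock genes is not reported here. Alternatives were DESeq2 1.42.0, no TMM, no filter on low counts, a stricter gate, no ceiling on genes per cell, mitochondrial UMIs up to 15%, no cycling cells, a replicate block and leaving out each library. The fits of plasma and stromal cells, the cycling and Foxp3 subsets and ILC2 without T cell transcripts were added after seeing the data.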

Additional observations from a re-analysis of the deposited data

Results flagged for a closer look

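The change of 3 members between temperatures differed from that in B cells by the edgeR interaction test. For Per1 in macrophages the difference was -1.86 on the log2 scale (adjusted p = 1.8e-05), for Per3 in macrophages 1.16 (adjusted p = 0.0400), and for Dbp in γδT cells 2.38 (adjusted p = 0.0125). Without 1 library the adjusted p of Per3 ran from 0.132 to 0.212, each of the 4 libraries being left out in turn. That of Dbp was 0.0843 and 0.0438 with replicates 1 and 2 of the 30 °C group left out in turn, and 0.282 and 0.0535 with those of the 4 °C group. Per1 was past the threshold in 12 of 12 settings.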

How the results depend on the processing

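Counts of members past the threshold moved as follows. With DESeq2 they were 0 in αβT cells, 0 in ILC2 and 1 in macrophages, against 1, 1 and 5 by edgeR. Without the filter on low counts they were 0 in αβT cells, 1 for the change of ILC2 against B cells, and 1 for the change and 2 for the level by Foxp3 (against 1, 0, 0 and 1). Without an upper limit on genes they were 0 in αβT cells, 0 for the change of γδT cells and 1 for that of macrophages against B cells (against 1, 1 and 2), and without TMM the last was also 1. Without cycling cells they were 1 in B cells, 0 in αβT cells and 0 for the change of γδT cells (against 0, 1 and 1), and in macrophages 4 against 5, with Cry1 and Per2 lost and Dbp gained as higher at 4 °C, and 3 against 2 for the change against B cells, with Dbp gained. Without TMM macrophages had 6, Dbp again gained, and without the filter on low counts their change against B cells gave 3, with Cry1 gained. With the stricter gate that count was 2, with Cry1 in place of Per3. In ILC2 the stricter gate gave 0, as did leaving out cells with Trac, Cd3d or Cd3e UMIs.

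Leaving out 1 library gave 0 to 1 members in B cells, αβT cells and γδT cells, 1 to 2 in ILC2, 2 to 4 in macrophages and 0 to 0 in mature DCs, plasma cells and stromal cells. Levels against B cells gave 5 to 6 in αβT cells, 4 to 8 in γδT cells, 4 to 5 in ILC2 and 6 to 6 in macrophages, and changes against B cells 0 to 0 in αβT cells and ILC2, 0 to 1 in γδT cells and 1 to 1 in macrophages. Cycling cells gave 4 to 6 in B cells and 8 to 8 in αβT cells, and Foxp3 1 to 2 for the level and 0 to 0 for the change. The cause of these moves was not tested.

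Replicate numbers did not pair the libraries (correlations of deviations from -0.074 to 0.220 over cell types). With the replicate block, 2 members passed in αβT cells, Dbp and Per1, and the counts in the other cell types were those without it.

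Over single members, 1730 values kept their side of the threshold, 59 lost and 33 gained a call, and none with a call changed sign. These totals pool values without a call in any setting and differences in level, so they do not give the share of temperature calls that were lost. Dbp in αβT cells was past the threshold in 6 of 13 settings and Per3 in macrophages against B cells in 5 of 12, whereas Per1 in macrophages was in 13 of 13. Values without a call could change sign, as that of Tef in ILC2 did (log2 fold change -0.63 in the main fit and 0.14 without cycling cells). DESeq2 gave no adjusted p for 40 values, so 3 counts have no DESeq2 value. Simulated 2-fold changes were recovered in 22.6% of cases in γδT cells and 40.9% in mature DCs, against 68.0% to 81.4% in the 4 other cell types simulated.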

Other observations

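Genes whose log2 CPM, centred on each cell type, followed that of Dbp most closely over 20 sums of library and cell type (among 6422 genes) were Gabarap (Pearson r = 0.939), Tmem8 (0.913), Casp6 (0.913), Fbxo25 (0.911) and Cdipt (0.893). For Arntl they were Ttc5 (0.928), Asap1 (0.862), Gm5617 (0.830), Srp54a (0.827) and Brk1 (0.818). The 20 sums share 4 libraries and differ in depth between cell types, so these values are a description.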
